A study of Mus musculus with 6 samples.

Results

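Imprinted genes are transcribed mainly from the copy inherited from 1 parent, and many of them are most active in the embryonic brain and placenta. The 38 genes described here are known imprinted mouse genes and the non-coding transcripts of their domains picked by name from a table of 33084 genes. They belong to 18 domains on 10 chromosomes, with 14 members on chromosome 7 and 6 on chromosome 6. From general knowledge, 21 of these members were labelled as transcribed from the paternal copy, 15 from the maternal copy and 2 (Grb10 and Ddc) as tissue-dependent. For several of the others the active copy also depends on the tissue, and it was not measured here. Coordinates below are those of GENCODE M21 on GRCm38 and span the whole annotated gene. All 38 were found in the table, and 37 passed the filter on low counts. The remaining member, Phlda2, a placental growth regulator, had 2, 2 and 1 counts in the controls and 1, 1 and 0 in the mutants and was not tested.

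Bulk RNA was sequenced from microdissected forebrains of mouse embryos at embryonic day 15.5, with 3 libraries per genotype. Controls were labelled wt (wild type). Mutants were Dyrk1a<DlxCre/+>, written Dyrk1a<Dlx/+> in the sample titles, in which 1 copy of Dyrk1a, a gene for a protein kinase of neuronal development, is inactivated within the Dlx5 domain, the territory of future GABAergic neurons, while cells outside that domain are not targeted. The comparison asks how that inactivation alters gene expression in the forebrain. The labels do not say whether any control carried Cre or the conditional allele alone, or whether embryos shared a litter, and p-values therefore refer to the spread between these libraries.

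Each library held between 24646616 and 38315004 counts. Dyrk1a itself had a mean of 177 ± 7.58 CPM (counts-per-million scaled by TMM; SD, n = 3) in the control embryos and of 175 ± 14.6 CPM in the mutant embryos. This whole-gene count includes cells outside the Dlx5 domain and does not single out the deleted part. The replicate 3 libraries of both genotypes stood apart from the other 4 on the first principal component (37.4% of variance), and markers shifted with them. Beside the mean of replicates 1 and 2, the median cycling progenitor marker was 0.67 log2 units higher in control replicate 3 and 0.58 higher in mutant replicate 3, and the median neuron marker was at -0.29 and -0.30. All 10 cycling markers were higher in both replicate 3 libraries and 8 of 10 neuron markers lower. Cycling markers summed to 1672 and 1787 CPM in replicate 3 and to between 1004 and 1107 CPM elsewhere. Summed forebrain markers lay between 745 and 888 CPM in every library. Choroid plexus markers summed to between 317 and 476 CPM, and meningeal and mural markers to between 578 and 747 CPM. Among markers of tissue outside the brain, the 8 of muscle and cartilage summed to between 48.1 and 75.5 CPM, of which the cartilage collagen gene Col2a1 made 45.8 to 73.9 CPM. The 7 markers of skin and epithelium summed to between 7.34 and 11.1 CPM, mostly from the adhesion genes Dsp, at 6.86, 5.88 and 6.83 CPM in controls and 4.32, 3.94 and 4.20 CPM in mutants, and Cdh1. The muscle factors Myod1 and Myog were at 0.316 CPM or less and the keratin Krt5 at 0.03 CPM or less. In these bulk samples, fewer cells of a type and less RNA per cell cannot be told apart.

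As background, the silent copy of an imprinted gene is marked in the germ line by DNA methylation at an imprinting control region, and the mark survives the reprogramming of the early embryo. Non-coding RNAs in several domains silence or accompany their neighbours, and the protein-coding members include growth factors, signalling adaptors and neuronal regulators. Read counts sum both parental copies, so these data measure the output of each gene and hold nothing on which copy produced it or on whether the imprint was kept.

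The zinc finger protein ZFP57 binds the letters TGCCGC where the CpG inside them is methylated, and helps to keep methylation at imprinting control regions. This hexamer was searched on both strands (TGCCGC or GCGGCA, with no other motif searched) in RefSeq promoters of GRCm38.p6, from 250 bases before to 50 after each annotated start. Of the 32 members with a promoter there, 10 (31.3%) held the hexamer, against 13.1% of 27025 genes with a promoter. By parental copy, 6 of 17 paternally expressed and 3 of 13 maternally expressed members held it. A gene was counted when any of its promoters held the hexamer. Neither the GC content of the promoters nor their number per gene was matched in this comparison, and a match describes letters and not occupancy. Windows of 30 bases are shown for 4 paternally expressed members in which the match begins upstream of the start (that of Snrpn runs across it), on the strand of the gene and with the hexamer in capitals. They are at chr7:60005184-60005213 (Snrpn, reverse strand), chr10:13090730-13090759 (Plagl1, forward), chr6:30737971-30738000 (Mest, forward) and chr6:58907133-58907162 (Nap1l5, reverse).
Snrpn: gacccctgcattGCGGCAaaaatgtgcgca
Plagl1: ctggcgtgttgcGCGGCAaagcccacggca
Mest: aggaggggcgctGCGGCAggatgggcgggt
Nap1l5: cagccattcactTGCCGCgagccgcgaagc
The hexamer began 2 bases before the annotated start in Snrpn, 90 in Plagl1, 67 in Mest and 24 in Nap1l5.

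The members together summed to between 8691 and 9013 TMM-scaled CPM in each library. Levels are compared between genes as CPM per kilobase of merged exons, averaged over the 6 libraries. Nnat, a membrane proteolipid of developing neurons, stood highest at 703 CPM per kilobase. It was followed by Mest, a hydrolase-fold protein of embryonic tissue, at 91.1, the non-coding RNA Meg3 at 72.3, the MAGE family growth suppressor Ndn at 69.9 and the non-coding RNA H19 at 67.6. Snrpn, a component of the splicing machinery, followed at 61.7 CPM per kilobase. On these lengths Mest stood above Meg3, H19 and Snrpn within every library, while over the libraries its values overlapped with those of Meg3 and Ndn. Of the 2159 exon bases of Snrpn, 589 are shared with Gm38393 on the same strand, where reads may have been left unassigned. The level of Snrpn may therefore be understated, and its place below Mest and H19 is uncertain. Meg3, Ndn, H19 and Snrpn overlapped with each other, so their order is not separated from the spread between libraries. At the low end were the guanine nucleotide exchange factor Rasgrf1 at 1.27, the dopamine-synthesis enzyme Ddc at 1.33 and the non-coding Airn at 1.35 CPM per kilobase. Slc22a18, a transporter-like protein, stood at 0.193 and Phlda2 at 0.036.

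**Figure D1:**
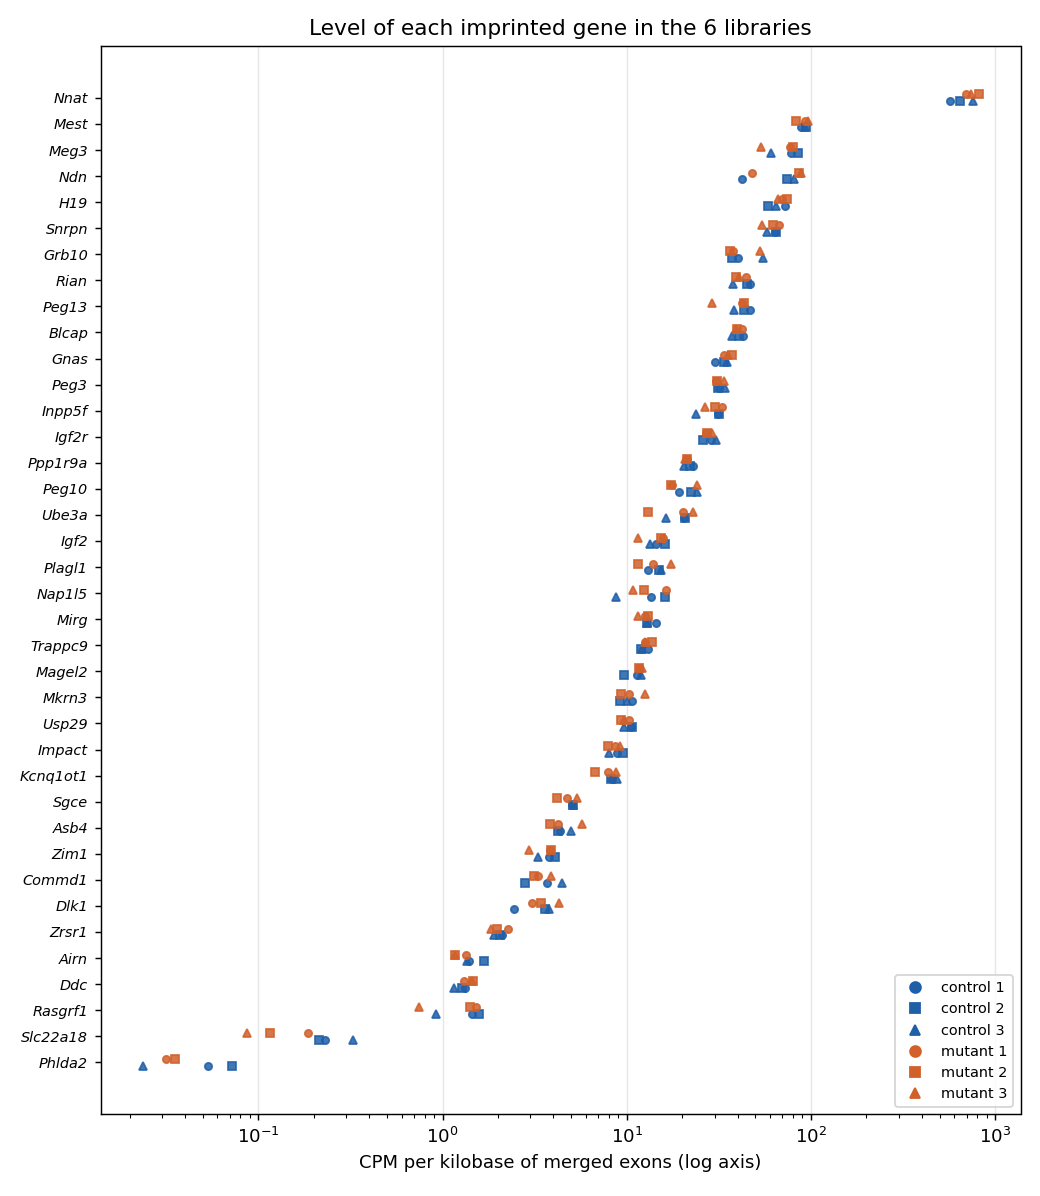
CPM per kilobase of merged exons on a log axis for the 38 members, ordered by their mean, with 1 point per library (blue for control, orange for mutant, and circle, square and triangle for replicates 1, 2 and 3). The library of mutant replicate 3 had 0 counts of Phlda2 and has no point there. Control and mutant points overlap in every gene except Airn and Slc22a18, where the mutants lie lower, and members range from 0.036 (Phlda2) to 703 (Nnat) in mean level.

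No imprinted member passed the test between genotypes. In the quasi-likelihood fit of edgeR, with p-values adjusted by Benjamini-Hochberg over all 19616 tested genes, 0 of the 37 tested members passed an adjusted p of 0.05, and the same test called 0% of all tested genes. Every member had an adjusted p of 0.9999. At an unadjusted p under 0.05 there was 1 member, Slc22a18, against 1.92% of all tested genes. DESeq2's Wald test also called 0 members, and gave 0 at an unadjusted p under 0.05.

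The mutant libraries were all below the control libraries for 2 members (Airn and Slc22a18), against 3.7% of all tested genes, and were all above them for 0 members, against 3.19%. On the log2 scale, mutant over control, the median member lay at -0.03, with 13 members above 0 and 24 below. The median over all tested genes was -0.01, with 9324 above 0 and 10292 below. Paternally expressed members had a median of -0.02 (8 above 0 and 13 below) and tested maternally expressed members a median of -0.05 (4 above and 10 below). The balance of signs turned with the processing. With the GC content and length trend removed, 23 of the 37 members lay above 0, 9 of the 14 maternally expressed members among them. Without control replicate 2, 22 of 37 did, and without mutant replicate 2, 19. The 95% interval of the log2 fold change lay within 1.5-fold in either direction (0.58 log2 units) for 33 of the 37 members. The other 4 were Slc22a18, Ndn, Rasgrf1 and Airn.

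**Figure D2:**
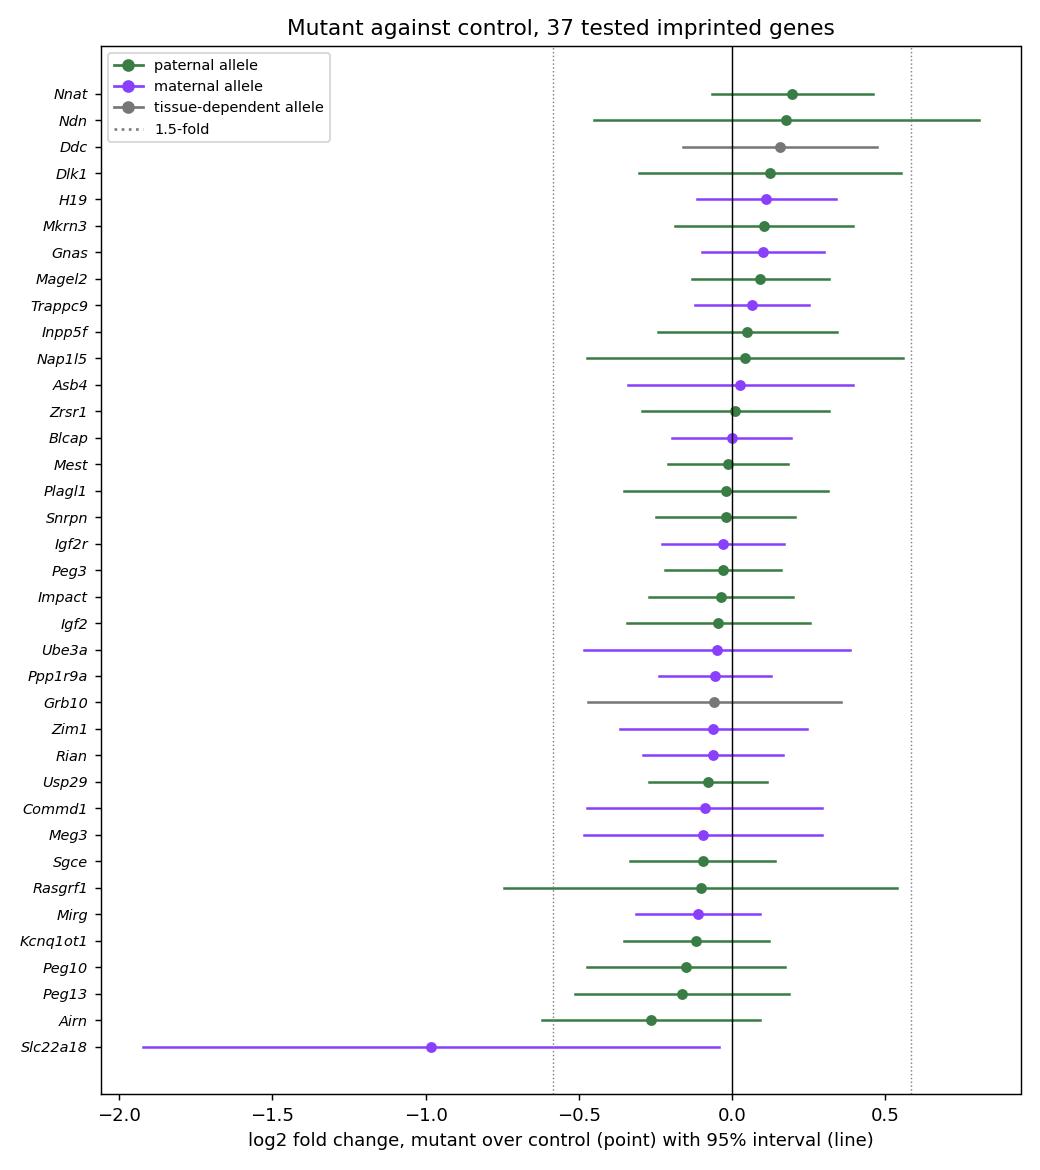
Log2 fold change of mutant over control for the 37 tested members (points) with 95% intervals from edgeR's quasi-likelihood fit (lines). Colours give the parental copy each member was labelled with, and dotted lines stand at 1.5-fold. All intervals cross 0 except that of Slc22a18, and 33 of 37 lie between the dotted lines.

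The members with the smallest p came from different domains. Slc22a18, a maternally expressed gene of the Kcnq1ot1 domain (chr7:143473736-143499334, forward strand), had 13, 9 and 21 counts in the controls and 9, 5 and 4 in the mutants. That is 0.390, 0.365 and 0.553 CPM against 0.316, 0.197 and 0.148 CPM, and the groups do not overlap. Its log2 fold change was -0.98 with a standard error of 0.41 (adjusted p = 0.9999, edgeR). Its counts lie at the edge of the filter, and it fell below that filter without control replicate 1 or without control replicate 3. By DESeq2's Wald test its unadjusted p was 0.135.

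Nnat, paternally expressed (chr2:157560078-157562522, forward strand), had the next smallest p. It stood at 1037, 1176 and 1384 CPM in the controls and 1278, 1489 and 1356 CPM in the mutants, so that control replicate 3 lay above mutant replicates 1 and 3. The log2 fold change was 0.20 with a standard error of 0.12 (adjusted p = 0.9999, edgeR), with a 95% interval from -0.07 to 0.46. It was 0.33 with only replicates 1 and 2 and 0.08 once a trend over GC content and transcript length was removed from each library. Blcap, a gene of cell growth control whose intron holds Nnat, had 131, 124 and 114 CPM in controls and 128, 121 and 119 CPM in mutants, with a log2 fold change of 0.00 ± 0.09 (SE). The Nnat to Blcap ratio of CPM averaged 9.85 ± 2.12 in controls and 11.2 ± 1.17 in mutants.

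The Dlk1-Meg3 domain on chromosome 12 pairs a paternally expressed Notch-like protein, Dlk1, with maternally expressed non-coding RNAs and a large miRNA cluster. Meg3, the first of these RNAs (chr12:109541001-109571726, forward strand), stood at 1418, 1537 and 1099 CPM in controls and 1391, 1442 and 965 CPM in mutants. The groups overlap throughout, and the lowest library of each genotype was replicate 3. Rian, which hosts small nucleolar RNAs, had 849, 820.0 and 693 CPM in controls and 810.4, 711 and 743 CPM in mutants. Mirg, a host of miRNAs at the distal end, had 105, 93.4 and 94.3 CPM against 92.1, 94.8 and 84.3 CPM. The log2 fold changes were -0.09 with a standard error of 0.17 for Meg3, -0.06 ± 0.10 for Rian and -0.11 ± 0.09 for Mirg. Dlk1 (chr12:109452823-109463336, forward strand) had 13.8, 20.5 and 21.5 CPM in controls and 17.4, 19.3 and 24.2 CPM in mutants, a log2 fold change of 0.13 ± 0.19. Here the lowest library was control replicate 1, and replicate 3 was the highest of each genotype, opposite to Meg3.

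**Figure D3:**
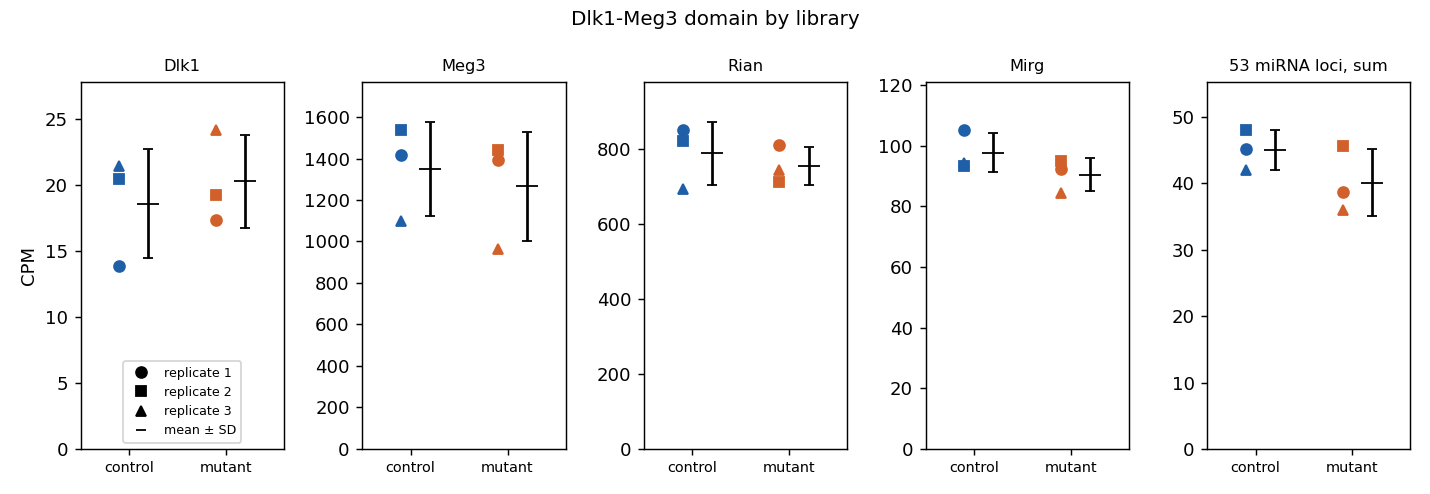
CPM of Dlk1, Meg3, Rian, Mirg and the sum of 53 forward-strand miRNA loci by genotype, with 1 symbol per library (shape for the replicate) and mean ± SD (n = 3) as a bar; axes start at 0. Control and mutant overlap in all 5 panels, and replicate 3 is lowest for Meg3 and the miRNA loci and highest for Dlk1 in both genotypes.

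The miRNA cluster also bears on how reads were assigned to strands. Rtl1, a paternally expressed gene on the reverse strand, runs opposite to 6 maternally expressed miRNA hairpins that lie wholly within its exons. The mature products of these 6 hairpins, 1 each from RefSeq on GRCm38.p6 and 5′ to 3′ with the seed (bases 2 to 8) in capitals, show 6 different seeds.
miR-431-5p: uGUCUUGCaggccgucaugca
miR-433-3p: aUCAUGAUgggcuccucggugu
miR-127-3p: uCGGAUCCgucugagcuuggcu
miR-434-3p: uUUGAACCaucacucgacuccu
miR-432: uCUUGGAGuagaucagugggcag
miR-136-5p: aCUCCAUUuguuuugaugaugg
The 6 loci, between chr12:109590447-109590537 (Mir431) and chr12:109595327-109595388 (Mir136) on the forward strand, held 851 counts over the 6 libraries, and the whole of Rtl1 held 473. Counted without regard to strand, reads inside both features would have been left unassigned or counted for Rtl1 as well, which held fewer. The counts are therefore taken to have been made by strand, in the orientation of the transcript. The overlap setting of HTSeq was not stated, and the orientation is an inference. Gm26906, annotated antisense to Meg3 with 1228 shared exon bases, averaged 2.33 counts. Overlaps with genes of the opposite strand, such as Ube3a with Snhg14 or Mest with Copg2, should therefore not mix their reads. On their own strand, Snrpn shares 589 exon bases with Gm38393 and Commd1 294 with Gm28048, and Rian and Mirg share 73 or fewer with any 1 small RNA gene, so these counts are uncertain to that extent.

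Over all 53 forward-strand miRNA loci of the cluster, the summed level was 45.2, 48.0 and 42.0 CPM in the controls and 38.7, 45.7 and 36.0 CPM in the mutants. The means were 45.1 ± 3.03 and 40.1 ± 5.00 CPM (SD, n = 3 each), and the groups overlap because mutant replicate 2 lies above controls 1 and 3. Libraries of this kind hardly capture RNAs as short as the mature miRNAs shown, and the sum counts fragments of the long precursor RNA over the hairpins.

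In the Peg3 domain on chromosome 7, Peg3, a zinc finger protein of growth and maternal behaviour (chr7:6703892-6730431, reverse strand), had 423, 418 and 457 CPM in controls and 409, 412 and 451 CPM in mutants. It was among the steadiest members, with a range of 0.16 log2 units over the 6 libraries. Usp29, a deubiquitinase gene transcribed head to head from a start 146 bases away, had 191, 194 and 175 CPM and 186, 169 and 175 CPM. Log2 fold changes were -0.03 ± 0.08 for Peg3, -0.08 ± 0.08 for Usp29 and -0.06 ± 0.13 for Zim1, a maternally expressed zinc finger gene. The Peg3 to Usp29 ratio averaged 2.33 ± 0.250 in controls and 2.40 ± 0.192 in mutants.

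On proximal chromosome 6, Peg10, derived from a retrotransposon and needed for placental growth (chr6:4747306-4760517, forward strand), had 128, 148 and 161 CPM in controls and 118, 116 and 160.3 CPM in mutants. Mutant replicates 1 and 2 were the lowest libraries, while mutant replicate 3 reached the level of control replicate 3. Sgce, the epsilon-sarcoglycan gene whose start lies 98 bases from that of Peg10, had 53.5, 54.4 and 54.0 CPM and 50.2, 44.3 and 57.1 CPM. The log2 fold changes were -0.15 ± 0.14 and -0.09 ± 0.10, with a Peg10 to Sgce ratio of 2.70 ± 0.293 in controls and 2.59 ± 0.234 in mutants. The value of Peg10 was -0.31 without mutant replicate 3 and -0.06 without control replicate 3, and that of Sgce ran from -0.19 without mutant replicate 3 to -0.0081 without mutant replicate 2. Ppp1r9a, a synaptic actin-binding protein, had -0.05 ± 0.08 and Asb4, a ubiquitin ligase subunit, 0.03 ± 0.16. Further along the chromosome, Mest (chr6:30723547-30748465, forward strand) had 347, 369 and 367 CPM in controls and 367, 327 and 379.9 CPM in mutants, a log2 fold change of -0.01 ± 0.09.

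Igf2, a fetal growth factor labelled as paternally expressed, without a measure of its active copy here (chr7:142650766-142666816, reverse strand), stood at 82.1, 92.5 and 77.0 CPM in controls and 89.8, 88.2 and 66.0 CPM in mutants. H19, its maternally expressed non-coding neighbour (chr7:142575529-142578143, reverse strand), had 177, 143 and 159 CPM and 172, 183 and 163 CPM. Log2 fold changes were -0.04 ± 0.13 for Igf2 and 0.11 ± 0.10 for H19, and the Igf2 to H19 ratio averaged 0.532 ± 0.0994 in controls and 0.470 ± 0.0591 in mutants. As background, Igf2 in the brain is made largely by choroid plexus, meninges and vessels. Choroid plexus marker Ttr ran from 298, 298 and 247 CPM in controls to 324, 399 and 261 CPM in mutants, and the collagen gene Col1a1 stood at 73.4 CPM in control replicate 1 against 25.3 to 33.9 CPM elsewhere. Of the 10 choroid plexus markers 8 lay above 0 between genotypes, and of the 12 meningeal and mural markers 4 did. The part of these cells in the Igf2 and H19 values was not tested.

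Igf2r, the receptor that clears IGF2 (chr17:12682406-12769664, reverse strand), had 267, 242 and 283 CPM in controls and 251, 255 and 271 CPM in mutants, a log2 fold change of -0.03 ± 0.09. Airn, the paternally expressed RNA that silences Igf2r on the same copy in many tissues (chr17:12741311-12860136, forward strand), had 5.03, 6.04 and 4.88 CPM in controls and 4.82, 4.21 and 4.20 CPM in mutants. The mutants were all lower, although control replicate 3 and mutant replicate 1 were nearly level. The log2 fold change of Airn was -0.26 with a standard error of 0.16 (adjusted p = 0.9999, edgeR), with a 95% interval from -0.62 to 0.09. It ranged from -0.33 to -0.17 when each library was left out in turn.

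Grb10, an adaptor that restrains insulin and IGF signalling (chr11:11930508-12038683, reverse strand), had 364, 339 and 499 CPM in controls and 343, 329 and 483 CPM in mutants, with replicate 3 highest in both. Its paternal copy is active in neurons and its maternal copy in most other tissues, which counts of both copies do not separate. The log2 fold change was -0.06 ± 0.18. Ddc, next to it, had 5.90, 5.72 and 5.17 CPM in controls and 5.80, 6.50 and 6.42 CPM in mutants, a log2 fold change of 0.16 ± 0.14. Plagl1, a zinc finger regulator of other imprinted genes, had -0.02 ± 0.15.

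The Snrpn-Ube3a domain corresponds to the human Prader-Willi and Angelman region. Ndn (chr7:62346569-62350262, forward strand) had 155, 273 and 298 CPM in controls and 178, 318 and 326 CPM in mutants, with the replicate 1 library low in both. Its log2 fold change was 0.18 with a standard error of 0.28, with a 95% interval from -0.45 to 0.81. With the replicate number added to the fit as a block, it was 0.18 with a standard error of 0.07 (adjusted p = 0.987, edgeR). Without control replicate 1 and without the block, it was -0.06. Ube3a, the ubiquitin ligase that is maternally expressed in neurons (chr7:59228750-59311536, forward strand), had 424, 429 and 338 CPM in controls and 415, 268 and 470.1 CPM in mutants. Mutant replicate 2 was lowest and mutant replicate 3 highest of all 6 libraries. The log2 fold change was -0.05 ± 0.19, made of -0.35 within replicates 1 and 2 and 0.47 within replicate 3. Snrpn had 138, 139 and 125 CPM and 145, 135 and 118 CPM, a log2 fold change of -0.02 ± 0.10. Magel2 and Mkrn3, intronless genes that regulate ubiquitin ligases and the timing of puberty respectively, had 0.09 ± 0.10 and 0.10 ± 0.13. Without control replicate 2, Magel2 was at 0.0093. The antisense host transcript Snhg14, which silences Ube3a in neurons and is no member, had a mean of 1409 ± 223 CPM in control and 1331 ± 154 CPM in mutant libraries (SD, n = 3 each).

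Kcnq1ot1, the long RNA that silences its neighbours on the paternal copy of distal chromosome 7 (chr7:143203458-143296549, reverse strand), had 773, 768 and 829 CPM in controls and 740.2, 629.8 and 817 CPM in mutants. Its log2 fold change was -0.12 ± 0.10, and the groups overlap through mutant replicate 3. Gnas, which encodes the stimulatory G protein subunit and shares its locus with several imprinted transcripts that the count joins, had 338, 378 and 392 CPM and 379.6, 415 and 394 CPM, a log2 fold change of 0.10 ± 0.09. Peg13, an intronic non-coding RNA, had 219, 206 and 181 CPM in controls and 200.4, 204 and 137 CPM in mutants, a log2 fold change of -0.16 ± 0.15, with mutant replicate 3 the lowest library. Its host Trappc9, a vesicle trafficking gene, had 0.07 ± 0.08. The 2 genes lie on the same strand and share 0 exon bases, and the counts do not separate Peg13 from unspliced Trappc9 RNA. The Peg13 to Trappc9 ratio averaged 2.06 ± 0.146 in controls and 1.75 ± 0.340 in mutants. Of the remaining members, Zrsr1, a splicing factor-like gene, Commd1, a copper and protein trafficking gene, Impact, a translation regulator, Rasgrf1, Nap1l5, a histone chaperone-like gene, and Inpp5f, a phosphoinositide phosphatase, had log2 fold changes between -0.10 (Rasgrf1) and 0.05 (Inpp5f).

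Ratios of neighbouring genes within a library compare the members of a domain without dependence on library scaling. For 10 such pairs the ratios of the mutants were set against those of the controls by a two-sided exact permutation test over 20 assignments, which cannot give a p below 0.10. The p ranged from 0.20 (Peg13 to Trappc9) to 0.90 (Meg3 to Rian), and from 0.889 to 0.90 after Benjamini-Hochberg adjustment over the 10 pairs. The Meg3 to Rian ratio averaged 1.71 ± 0.148 in controls and 1.68 ± 0.366 in mutants. The Igf2r to Airn ratio averaged 50.4 ± 9.27 in controls and 59.1 ± 6.29 in mutants, and that of Meg3 to Dlk1 76.2 ± 25.7 in controls and 64.9 ± 21.8 in mutants. In none of these pairs was the difference shown to exceed the spread of the libraries in this test.

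Most members, like most tested genes, shifted more in the replicate 3 libraries than between genotypes. Over the 6 libraries the median member spanned 0.44 log2 units, against 0.49 for all tested genes, and 3 members (Slc22a18, Rasgrf1 and Ndn) spanned more than 1. The mean shift of replicate 3 against replicates 1 and 2 was larger in size than the genotype difference for 28 of 37 members (75.7%), and for 66.5% of all tested genes. Rasgrf1, which couples neuronal activity to RAS signalling, was lower in replicate 3 by the most on average over both genotypes, at -0.71 in controls and -0.97 in mutants, from 16.1, 17.5 and 10.2 CPM and 16.9, 15.6 and 8.22 CPM. Nap1l5 stood at -0.75 and -0.38, Meg3 at -0.43 and -0.55, and Inpp5f at -0.39 and -0.25. Peg13 stood at -0.23 and -0.56, and Zim1 at -0.25 and -0.39.

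Higher in both replicate 3 libraries were Grb10 (0.50 in controls and 0.52 in mutants), Ndn (0.53 and 0.46), Commd1 (0.47 and 0.26), Dlk1 (0.35 and 0.40), Peg10 (0.22 and 0.45) and Asb4 (0.22 and 0.51). The value of Ndn rests on its low replicate 1 libraries, since replicates 2 and 3 differ little. In all, 6 of 37 members were over 0.2 log2 units higher in both replicate 3 libraries and 6 were as much lower, against 10.3% and 13.9% of all tested genes. These are differences of 1 library per genotype and carry no test. The cycling progenitor and neuron markers moved with the same libraries. Of the 8 erythroid markers, 5 (the adult globin genes and Alas2) were lower in both replicate 3 libraries and 3 were higher. These 3 were the embryonic globin genes Hbb-y, Hbb-bh1 and Hba-x, with Hbb-y at 42.5, 27.8 and 321 CPM in controls and 35.5, 41.5 and 322 CPM in mutants. The part of these markers in the member values was not tested. The genotype difference had opposite signs within replicates 1 and 2 and within replicate 3 for 17 of 37 members, against 54.3% of all tested genes.

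**Figure D4:**
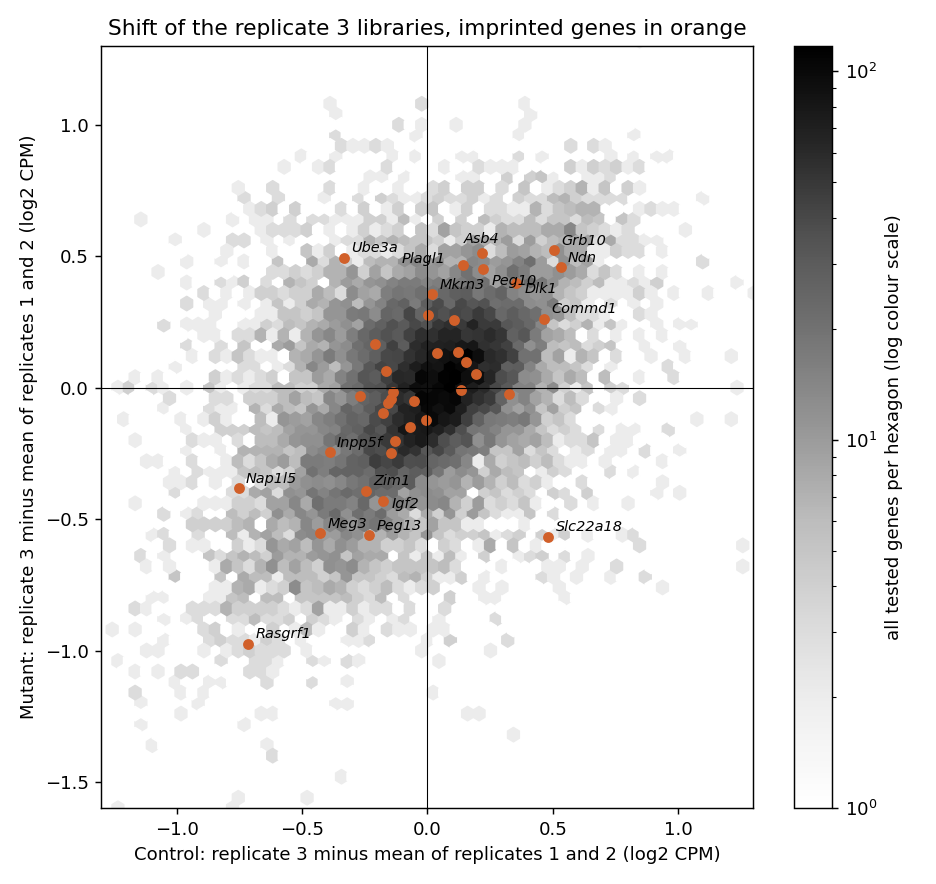
Shift of replicate 3 against the mean of replicates 1 and 2 in log2 CPM, for controls on the x axis and mutants on the y axis, with the 37 tested members in orange and all tested genes as grey hexagons (darker for more genes, log scale). Rasgrf1, Nap1l5 and Meg3 lie low and Grb10, Ndn and Dlk1 high in both, while Ube3a lies at -0.33 in controls and 0.50 in mutants; a few genes beyond the axes are not shown.

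Other genes known to be imprinted in the mouse, listed apart from the members, were read from the same fit. Of 51 listed, 42 were tested, 18 lay above 0 and 24 below with a median of -0.02, and 0 passed the adjusted threshold. The smallest p, and the only unadjusted p under 0.05 in this list, was that of Cdkn1c, a maternally expressed inhibitor of the cell cycle in the Kcnq1ot1 domain (chr7:143458339-143461050, reverse strand). It stood at 62.4, 73.5 and 82.7 CPM in controls and 87.8, 105 and 102 CPM in mutants, all mutants higher, with a log2 fold change of 0.43 with a standard error of 0.12 (adjusted p = 0.9999, edgeR). The next were Th, the tyrosine hydroxylase gene, at 0.30 ± 0.17 and Dcn, a matrix proteoglycan gene, at 0.17 ± 0.10, again with all mutants higher. In this list 3 of 42 genes had all mutants higher and 0 all lower, against 3.19% and 3.7% of all tested genes.

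Factors that set or keep imprints, among them the DNA methyltransferases, ZFP57 and its partners, were tested for 29 of 31 listed genes. Of these, 11 lay above 0 and 18 below with a median of -0.02, and 0 passed. Zfp57 itself had 124, 141 and 130.4 CPM in controls and 141, 141 and 129.9 CPM in mutants, a log2 fold change of 0.06 ± 0.09. Ehmt2, a histone methyltransferase, stood at 0.16 ± 0.09 and Mbd2, a reader of methylated DNA, at 0.17 ± 0.11. Among these 29 genes, 0 had all mutants higher and 2 all lower, against 3.19% and 3.7% of all tested genes. Partners of IGF signalling were tested for 24 of 26 listed genes, with 11 above 0 and 13 below, a median of -0.02 and 0 passing. Here the smallest p belonged to the IGF-binding protein genes Igfbp2, at 0.23 ± 0.10, and Igfbp4, at 0.15 ± 0.08, both with all mutants higher, and to the receptor gene Igf1r, at -0.12 ± 0.07, with all mutants lower. Among these 24 genes, 2 had all mutants higher and 1 all lower, against 3.19% and 3.7% of all tested genes.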

How the data were processed

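Per the labels' protocols, ribosomal RNA was depleted, strand-marked (dUTP) total RNA libraries were made and single-end reads were taken on an Illumina instrument; the labels also name polyA RNA. The authors aligned reads to GRCm38 with HISAT2 and SAMtools 1.9 and counted them with HTSeq 0.9.1, per the submitters' processing notes. The strand setting was not given in the sources used here. All deposited values are raw read counts per gene (33084 genes, 2034 at 0 in every library). Symbols, coordinates, exon lengths and GC content came from GENCODE M21 on GRCm38 (32888 identifiers matched), and sequences from RefSeq GRCm38.p6.

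Genes were kept by filterByExpr (count minimum 10, total 15), leaving 19616. All 6 libraries were fitted with edgeR 4.0.16 (TMM, robust quasi-likelihood F test, Benjamini-Hochberg adjustment, threshold 0.05) in R 4.3.3. CPM values are TMM-scaled, and log2 CPM had 2 as prior count. Biological variation between libraries was 0.143 as a common coefficient. Members' median standard error was 0.13 log2 units and their median 95% interval half-width 0.29. DESeq2 1.42.0, no filter, DESeq2 size factors, a replicate block, replicates 1 and 2 alone, a GC content and length trend and leaving out each library were alternatives. Members and lists were chosen with earlier results of these data known. All members are named; from each other list the 3 smallest p are named (1 of them is not reported here), with Zfp57, Snhg14 and markers added as context. Figures used matplotlib 3.10.9 in Python 3.11.15.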

Additional observations from a re-analysis of the deposited data

How the results depend on the processing

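No member passed an adjusted p of 0.05 by edgeR or DESeq2 under any alternative run, and the smallest adjusted p of a member over all of them was 0.478 (Nnat, replicates 1 and 2 alone). Over all tested genes 0 passed in each of these fits, except that 3 genes, none a member, passed with only replicates 1 and 2. Genes at an unadjusted p under 0.05 numbered 376, against 261 by DESeq2's Wald test, 587 without the filter, 765 with a replicate block, 1544 with only replicates 1 and 2, and 179 (without control replicate 1) to 1060 (without control replicate 3) leaving out 1 library. Members at that level numbered between 0 and 2. The 2 were Ndn and Nnat with the replicate block, and Peg10 and Nnat with only replicates 1 and 2. Slc22a18 was filtered out in 3 settings (replicates 1 and 2 alone, without control replicate 1, without control replicate 3), which left 36 members, and kept its sign in the others, as did Airn and Nnat.

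Removing the GC content and length trend moved the members' median log2 fold change from -0.03 to 0.0072 and that of maternally expressed members from -0.05 to 0.0070. Leaving out 1 library gave -0.055 to 0.0098 for all members, -0.072 to 0.022 for paternally and -0.055 to -0.0049 for maternally expressed members, the last at -0.0052 without control replicate 1 and -0.0049 without control replicate 2. Igfbp2 went from 0.23 to 0.04, Ehmt2 from 0.16 to 0.06, Igf1r from -0.12 to -0.07 and Dcn from 0.17 to 0.27 once the trend was removed, and Mbd2 from 0.17 to 0.07 with only replicates 1 and 2.

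None of the tested members is separated from 0 after adjustment, and 26 of 37 changed sign under 1 or more alternatives, with 11 keeping it. With the trend removed, log2 fold changes turned to 0.067 for Rian, 0.027 for Peg3, 0.00085 for Usp29, 0.0013 for Zim1, 0.011 for Ppp1r9a, 0.0026 for Igf2r, 0.017 for Plagl1, 0.050 for Ube3a, 0.00026 for Kcnq1ot1 and 0.0072 for Impact. With only replicates 1 and 2 they turned to -0.081 for Asb4, 0.034 for Igf2, -0.015 for Mkrn3, 0.017 for Snrpn and -0.045 for Nap1l5. Blcap turned to 0.0030 with DESeq2 size factors, 0.0031 by DESeq2's Wald test and 0.0011 with the replicate block. Leaving out 1 library moved 22 members across 0. The ranges were -0.16 to 0.14 for Asb4, -0.043 to 0.046 for Blcap, -0.24 to 0.087 for Commd1, -0.050 to 0.26 for Dlk1, -0.25 to 0.14 for Grb10, -0.11 to 0.089 for Igf2, -0.086 to 0.033 for Igf2r and -0.094 to 0.026 for Impact. They were -0.060 to 0.13 for Inpp5f, -0.21 to 0.071 for Meg3, -0.054 to 0.050 for Mest, -0.022 to 0.19 for Mkrn3, -0.16 to 0.24 for Nap1l5, -0.061 to 0.42 for Ndn and -0.26 to 0.0037 for Peg13. They were -0.073 to 0.021 for Peg3, -0.19 to 0.11 for Plagl1, -0.30 to 0.16 for Rasgrf1, -0.084 to 0.062 for Snrpn, -0.22 to 0.16 for Ube3a, -0.13 to 0.063 for Zim1 and -0.074 to 0.081 for Zrsr1. The cause of these sign changes was not tested. The other 15 members kept their sign when 1 library was left out, with ranges of -0.14 to -0.0035 for Rian, -0.15 to -0.055 for Mirg, -0.11 to -0.046 for Usp29, -0.31 to -0.065 for Peg10, -0.19 to -0.0081 for Sgce, -0.094 to -0.017 for Ppp1r9a, 0.042 to 0.19 for H19 and -0.33 to -0.17 for Airn. They were 0.11 to 0.21 for Ddc, 0.0093 to 0.17 for Magel2, -0.20 to -0.021 for Kcnq1ot1, -1.34 to -0.76 for Slc22a18, 0.10 to 0.32 for Nnat, 0.041 to 0.16 for Gnas and 0.028 to 0.10 for Trappc9.

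The labels number replicates 1 to 3 in both groups without stating a shared litter or day. Deviations of same-numbered libraries correlated at 0.24, 0.07 and 0.36, all above 0. Between differently numbered libraries the correlations ran from -0.47 (control replicate 3 with mutant replicate 1) to 0.35 (control replicate 2 with mutant replicate 1). As the labels state no pairing, the main fit did not pair the samples, and the block was an alternative. A shift shared by same-numbered libraries, such as that of replicate 3, therefore stays in the error of the main fit. With the replicate block 0 genes and 0 members passed. With 3 libraries per genotype the members' intervals reached 0.29 log2 units to either side at the median.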
